A study of Gallus gallus with 36 samples.

Results

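The cryptochrome genes CRY1, CRY2 and CRY4 were followed over a circadian day in the chicken pineal gland and retina. All rows of the deposited transcript table that belong to these 3 genes were taken, which gave 8 of 23352 transcripts and 3 of 17934 Ensembl genes. The table names 5 of the 8 transcripts as CRY1 or CRY2. The 3 CRY4 transcripts have no gene name there, and were found through their description and gene identifier, with a RefSeq identifier in 2 of them. Birds came as one-day-old Hyline chicks, were kept for 9 days on a cycle of 12 h light and 12 h dark, and were moved to constant darkness on day 10. Tissue was collected in that darkness from the start of the subjective day, at circadian times (CT) 0, 4, 8, 12, 16 and 20 h, where CT0 to CT12 was the former light phase. A pineal library held 3 glands and a retinal library a single retina, with 3 libraries for each tissue and time and 36 in all. The labels name no other treatment and no genetic alteration.

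Cryptochromes are flavoproteins related to the light-driven DNA repair enzymes called photolyases. In vertebrates CRY1 and CRY2 join the period proteins and repress the activator pair formed by CLOCK and ARNTL (also called BMAL1), which drives transcription of the cryptochrome and period genes themselves. The chicken pineal gland and retina each contain photoreceptive cells with clocks of their own. CRY4, which mammals lack, binds its flavin cofactor and responds to light in birds, and it has been studied in the avian retina as a candidate sensor of magnetic direction.

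The libraries held 6583163 to 9434608 estimated counts in pineal gland and 4994388 to 8122277 in retina, which is the total per library and limits the precision of low transcripts. The summed level of 6 measured pinealocyte markers was 9570 to 34540 CPM (counts scaled to a common library size) in pineal gland and 342 to 477 CPM in retina, whereas 8 inner retina markers summed to 951 to 1301 CPM in pineal gland and 5103 to 6247 CPM in retina. GLUL carried most of that difference, with means of 262 and 3634 CPM. RLBP1 was alike at 527 and 530 CPM, and ISL1 was higher in pineal gland, at 270.1 and 55.1 CPM. TPH1 carried most of the pinealocyte sum, with means of 19586 and 87.4 CPM. Its fitted 24 h peak and trough in pineal gland differed 4.47-fold, so that sum moved with time. LIM3 (104 and 63.2 CPM) and OTX2 (64.9 and 29.7 CPM) differed less between the tissues. In TTR, the transthyretin gene, 3 pineal libraries stood apart. Its RNA is abundant in choroid plexus, and CT12 replicates 1 and 3 and CT20 replicate 1 held 992 to 1542 CPM and the other 15 held 23302 to 44234 CPM. Values without these 3 libraries stand beside the gene rhythms, called steps, shares and most tissue differences of the cryptochromes that they touch. For other genes they are given for few results. In all comparisons the spread is that between these libraries, which may in part be technical.

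CRY1 (ENSGALG00000012638, chromosome 1, 55631782 to 55667683 in the coordinates of the deposited table) had the widest daily swing of the 3 genes in the pineal gland. Its level was 101, 108 and 107 CPM in the 3 libraries at CT0 and 201, 205 and 202 CPM at CT4. It was 358, 347 and 371 CPM at CT8 and 414, 386 and 433 CPM at CT12. It was then 261, 250 and 256 CPM at CT16 and 117, 121 and 108 CPM at CT20. The libraries of CT12 were above those of every other time and those of CT0 were below every other time, with no overlap between neighbouring times. A 24 h curve had an amplitude of 1.05 ± 0.03 (SE, log2 CPM, 18 libraries), where amplitude is the height of the peak above the mean, and a peak at CT10.6 (SE 0.112 h). Fitted peak and trough differed 4.30-fold, and the rhythm passed edgeR's quasi-likelihood test with Benjamini-Hochberg adjustment (adjusted p = 3.41e-14), as did 28.6% of the 13042 pineal genes tested. By p-value CRY1 ranked 3 among those genes and by amplitude 75. Without the 3 libraries low in TTR the amplitude was 1.04 and the peak lay at CT10.6.

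**Figure D1:**
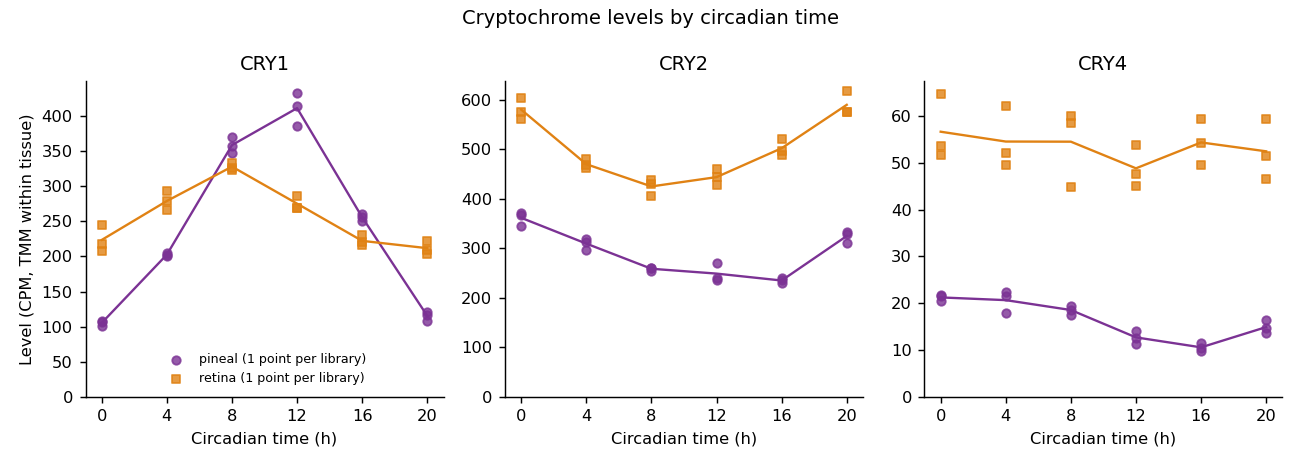
Level of CRY1, CRY2 and CRY4 (CPM, transcripts summed per gene, scaled within each tissue) against circadian time, with 1 point per library and lines through the means of 3 libraries. Pineal CRY1 has a mean of 105 CPM at CT0 and of 411 CPM at CT12, CRY2 is highest at CT0 in pineal gland and at CT20 in retina, and retinal CRY4 keeps means between 48.8 and 56.6 CPM.

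Pineal CRY1 rose from CT0 to CT8 and fell from CT12 to CT20, and the small step between CT8 and CT12 rested on single libraries. The level rose by 0.94 ± 0.05 (SE, log2) from CT0 to CT4, by 0.82 ± 0.05 from CT4 to CT8 and by 0.20 ± 0.05 from CT8 to CT12 (edgeR adjusted p = 2.92e-08, 2.93e-08 and 0.0387). Such rises were called in 1.21%, 3.01% and 2% of pineal genes. It fell by 0.68 ± 0.05 from CT12 to CT16 and by 1.15 ± 0.05 from CT16 to CT20 (edgeR adjusted p = 2.19e-06 and 1.08e-09), falls called in 0.751% and 1.79% of genes. The change of -0.13 ± 0.05 from CT20 to CT0 did not pass (edgeR adjusted p = 0.126). Collection covered a single circadian day, so the CT0 libraries preceded those of CT20 and this change sets the last time against the first. Time in constant darkness rose with circadian time, and their effects cannot be told apart. Without the 3 libraries low in TTR, with replicate 2 alone at CT12, the step from CT8 to CT12 was 0.10. The later falls were then -0.58 and -1.16. The step from CT8 to CT12 lost its call, at 0.16 to 0.22 (edgeR adjusted p of 0.0505 to 0.162), when any library of CT8, CT12 replicate 1 or 3, or CT16 replicate 3 was left out. Without CT20 replicate 3 the change from CT20 to CT0 passed, at -0.17 (adjusted p = 0.0475). The 6 means departed from a plain 24 h curve without passing the test (edgeR adjusted p = 0.0641), which 2.48% of pineal genes passed.

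In the retina CRY1 was rhythmic with a smaller swing and an earlier peak. Its level was 245, 218 and 207 CPM at CT0 and 278, 293 and 266 CPM at CT4. It was 324, 327 and 334 CPM at CT8 and 269, 287 and 270 CPM at CT12. It was 216, 220 and 230 CPM at CT16 and 204, 209 and 223 CPM at CT20. All libraries of CT8 were above all others, whereas those of CT0, CT16 and CT20 overlapped. The amplitude was 0.32 ± 0.03 (SE, log2 CPM), the peak CT7.91 (SE 0.311 h) and the peak to trough ratio 1.55 (edgeR adjusted p = 4.50e-09), in a tissue in which 8.91% of 12172 genes were called rhythmic. Retinal CRY1 rose from CT0 to CT4 by 0.32 ± 0.06 and from CT4 to CT8 by 0.23 ± 0.06 (edgeR adjusted p = 0.00619 and 0.0297). These rises were called in 0.411% and 0.764% of retinal genes. The fall from CT12 to CT16, by 0.31 ± 0.06, passed at adjusted p = 0.0265, with 0.0411% of genes called. That fall no longer passed with the replicate number as a block (adjusted p = 0.0541), nor when any single library of CT12 or CT16 was left out (-0.33 to -0.28, adjusted p of 0.0556 to 0.218). The rise from CT0 to CT4 lost its call without CT0 replicate 3 (0.27, adjusted p = 0.0539), and the rise from CT4 to CT8 without CT4 replicate 1 or 3 or any library of CT8 (0.20 to 0.24, adjusted p of 0.0872 to 0.172). Of the fits that left out 1 library, the step from CT8 to CT12 passed in those without CT0 replicate 1 or CT0 replicate 3 (-0.25 in both, adjusted p = 0.0156 and 0.0316).

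The 24 h curves of CRY1 differed between the tissues by 0.84 (log2, the amplitude of the difference curve) in edgeR's test of tissue by curve over 36 libraries (adjusted p = 1.15e-16), and 16.4% of 13485 genes passed that test. The pineal amplitude was 3.33 times the retinal one, and the retinal peak came 2.69 h earlier (SE 0.331 h). Without the 3 pineal libraries low in TTR the difference was 0.82.

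CRY2 (ENSGALG00000008436, chromosome 5, 26106138 to 26126822) was nearly opposite to CRY1 in both tissues. In the pineal gland it was 368, 346 and 372 CPM at CT0, 319, 314 and 296 CPM at CT4 and 260, 261 and 255 CPM at CT8. It was 271, 236 and 240 CPM at CT12, 240, 230 and 235 CPM at CT16 and 333, 312 and 330 CPM at CT20. The CT0 libraries lay above all others, and those from CT8 to CT16 formed a low stretch in which CT12 overlapped both CT8 and CT16. The amplitude was 0.30 ± 0.03 (SE, log2 CPM), the peak CT0.253 (SE 0.400 h) and the peak to trough ratio 1.52 (edgeR adjusted p = 1.32e-06). Without the libraries low in TTR the amplitude was 0.34. On the fitted curves pineal CRY1 peaked 10.4 h after CRY2.

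Pineal CRY2 fell by 0.22 ± 0.05 (SE, log2) from CT0 to CT4 and by 0.26 ± 0.05 from CT4 to CT8, and rose by 0.47 ± 0.05 from CT16 to CT20 (edgeR adjusted p = 0.0265, 0.00737 and 3.18e-05). Falls were called in 1.57% and 1.3% of pineal genes at the first steps and rises in 1.51% at the last. With the replicate number as a block the difference of CT0 from CT20, 0.15, also passed (edgeR adjusted p = 0.0389, against 0.0645 without it). So did the departure from a 24 h curve (adjusted p = 0.0488, against 0.0805). The difference of CT0 from CT20 passed too without CT12 replicate 1 (0.16, adjusted p = 0.0281) or CT0 replicate 2 (0.19, adjusted p = 0.0458). The fall from CT0 to CT4 lost its call without CT0 replicate 1 or 3 or any library of CT4 (-0.25 to -0.19, adjusted p of 0.0551 to 0.137), and the fall from CT4 to CT8 without CT4 replicate 1 (-0.24, adjusted p = 0.0596). The 3 called steps of CRY2 without the libraries low in TTR were -0.23, -0.26 and 0.45.

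In the retina CRY2 was 604, 576 and 561 CPM at CT0, 462, 480 and 469 CPM at CT4 and 407, 431 and 439 CPM at CT8. It was 460, 445 and 428 CPM at CT12, 497, 489 and 522 CPM at CT16 and 576, 619 and 575 CPM at CT20. The libraries of CT20 and CT0 overlapped each other and were above those of every other time. The amplitude was 0.25 ± 0.02 (SE, log2 CPM), the peak CT21.3 (SE 0.272 h) and the peak to trough ratio 1.42 (edgeR adjusted p = 2.78e-09). Retinal CRY2 fell by 0.30 ± 0.05 from CT0 to CT4 and rose by 0.23 ± 0.05 from CT16 to CT20 (edgeR adjusted p = 0.00132 and 0.0113), steps called in that direction in 0.181% and 0.493% of retinal genes. The rise lost its call without CT16 replicate 2 (0.21, adjusted p = 0.0851) or CT20 replicate 2 (0.19, adjusted p = 0.112). Its peak came 2.96 h earlier than in the pineal gland (SE 0.484 h), and the curves differed by 0.22 (log2, edgeR adjusted p = 0.000198; 0.25 without the libraries low in TTR). Retinal CRY1 peaked 10.6 h after CRY2.

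CRY4 (ENSGALG00000000104, chromosome 26, 1073277 to 1080081) was rhythmic in the pineal gland, at a low level. It was 20.5, 21.7 and 21.5 CPM at CT0, 21.5, 17.9 and 22.5 CPM at CT4 and 18.6, 17.6 and 19.5 CPM at CT8. It was 14.2, 11.3 and 12.6 CPM at CT12, 9.80, 10.5 and 11.4 CPM at CT16 and 14.8, 13.5 and 16.4 CPM at CT20. Every library of CT0, CT4 and CT8 was above every library of the other times. The amplitude was 0.51 ± 0.05 (SE, log2 CPM), the peak CT3.07 (SE 0.352 h) and the peak to trough ratio 2.01 (edgeR adjusted p = 7.32e-07). Without the libraries low in TTR the amplitude was 0.53. The level fell by 0.55 ± 0.11 from CT8 to CT12 and rose by 0.50 ± 0.12 from CT16 to CT20 (edgeR adjusted p = 0.0104 and 0.0192). At CT0, which was collected before CT20, it was 0.51 ± 0.11 above CT20 (edgeR adjusted p = 0.00391). These steps were called in 1.39%, 1.51% and 5.32% of pineal genes. Leaving out the libraries low in TTR, with replicate 2 alone at CT12, they were -0.72, 0.51 and 0.50. The rise from CT16 to CT20 lost its call without CT16 replicate 1 or 2 or CT20 replicate 1 or 3 (0.43 to 0.50, adjusted p of 0.0551 to 0.121).

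In the retina no rhythm of CRY4 was detected. Its level was 64.7, 51.6 and 53.5 CPM at CT0, 49.5, 52.0 and 62.1 CPM at CT4 and 58.6, 60.0 and 44.9 CPM at CT8. It was 47.7, 45.0 and 53.8 CPM at CT12, 49.5, 54.2 and 59.4 CPM at CT16 and 46.6, 59.2 and 51.5 CPM at CT20. All 6 times overlapped. The fitted amplitude was 0.06 ± 0.05 (SE, log2 CPM; edgeR adjusted p = 0.696), and no 4 h step passed. In the retina none of the 3 cryptochromes departed from a 24 h curve with a passing test (edgeR adjusted p of 0.983 to 0.998), as 0.0164% of retinal genes did. The curves of the tissues differed by 0.45 (log2, edgeR adjusted p = 6.39e-05), and by 0.48 without the libraries low in TTR.

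CRY4 lies inside the span of AHCYL1 (chromosome 26), which encodes a regulator of inositol trisphosphate receptors, and no source used here says whether counting used the strand, so reads of the overlap could be shared. AHCYL1 ran from 177 to 305 CPM over the pineal libraries and from 200 to 254 CPM over the retinal ones. Its own 24 h curve did not pass in either tissue (pineal amplitude 0.07 ± 0.06, edgeR adjusted p = 0.534, retinal amplitude 0.08 ± 0.02, adjusted p = 0.0710). Averaged over the times AHCYL1 was lower in pineal gland, at -0.23 ± 0.05 (SE, log2, pineal minus retina, edgeR adjusted p = 5.47e-05). That call was shared by 43.3% of genes. Whether shared reads entered the CRY4 values was not tested.

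The single transcripts of CRY1 moved together. CRY1-201 (ENSGALT00000037715) took 67.2% of pineal and 67.4% of retinal CRY1 counts and CRY1-202 (ENSGALT00000020627) the rest. In the pineal gland CRY1-201 had an amplitude of 1.02 ± 0.04 with a peak at CT10.6, and CRY1-202 had 1.11 ± 0.04 with a peak at CT10.7 (SE, log2 CPM; edgeR adjusted p over all transcripts = 2.40e-11 and 6.27e-12, with 21.1% of transcripts called). In the retina the amplitudes were 0.32 ± 0.03 and 0.30 ± 0.05 (edgeR adjusted p = 2.16e-06 and 0.00168, with 6.29% called). Per length, CRY1-201 made up 60.8% ± 2.42 (SD, n = 18) of pineal and 60.7% ± 2.91 of retinal CRY1 FPKM, a measure of fragments scaled to transcript length and to the size of the library. Transcript usage between the tissues was called in 32% of 2734 genes with several tested transcripts. None of the 3 cryptochromes passed it (edgeR diffSpliceDGE, adjusted p = 0.970 for CRY1, 0.780 for CRY2 and 0.294 for CRY4). Without the libraries low in TTR the pineal amplitudes were 1.03 for CRY1-201, 1.06 for CRY1-202, 0.34 for CRY2-201 and 0.62 for CRY4 ENSGALT00000040673. How the authors' tools divided reads between overlapping transcripts limits these values.

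**Figure D2:**
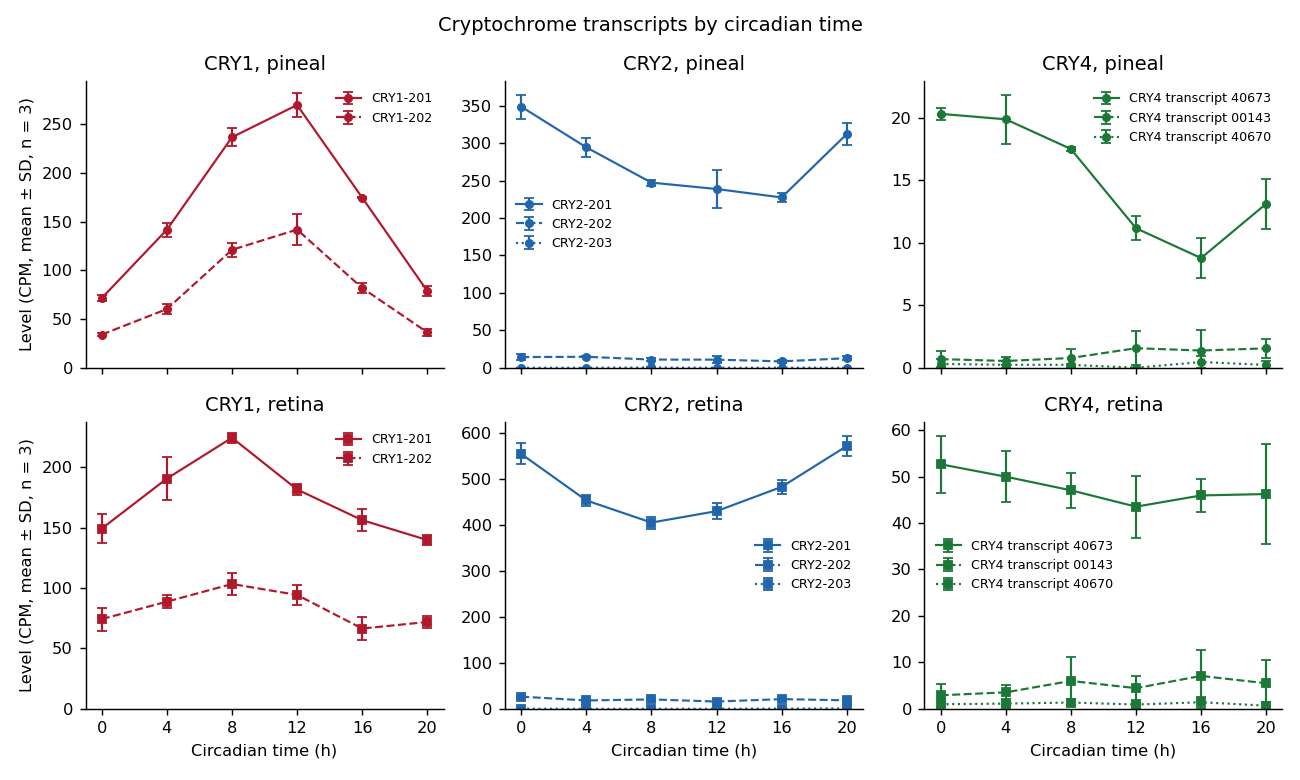
Level of each cryptochrome transcript (CPM, mean ± SD of 3 libraries) against circadian time in pineal gland (upper row) and retina (lower row); the CRY4 transcripts are named by the last digits of their identifiers. Both CRY1 transcripts rise to CT12 in pineal gland and to CT8 in retina, and 1 transcript carries most of the counts of CRY2 and of CRY4.

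CRY2-201 (ENSGALT00000013745) took 95.9% of pineal and 96.0% of retinal CRY2 counts, with amplitudes of 0.30 ± 0.03 and 0.25 ± 0.02 (edgeR adjusted p = 1.27e-05 and 1.17e-07). CRY2-202 (ENSGALT00000038345), at a median of 12.5 CPM in pineal gland and 19.7 CPM in retina, had amplitudes of 0.37 ± 0.12 and 0.19 ± 0.09 that did not pass (edgeR adjusted p = 0.119 and 0.442). Without pineal CT12 replicate 2 the pineal curve of CRY2-202 passed, at 0.44 (adjusted p = 0.0449). CRY2-203 (ENSGALT00000038344) had counts in 3 pineal and 7 retinal libraries and was too low to be tested. Of CRY4, ENSGALT00000040673 took 91.9% of pineal and 89.0% of retinal counts and was rhythmic in the pineal gland with an amplitude of 0.61 ± 0.06 (edgeR adjusted p = 2.51e-06). In the retina that transcript did not pass, at 0.11 ± 0.06 (adjusted p = 0.533). ENSGALT00000000143, at a median of 0.931 CPM in pineal gland, carries the same RefSeq identifier, and its share of a library's CRY4 counts ran from 0% to 29.8% there. Its curves did not pass (pineal amplitude 0.47 ± 0.43, edgeR adjusted p = 0.554, retinal amplitude 0.50 ± 0.54, adjusted p = 0.854). ENSGALT00000040670 was too low to be tested in the pineal gland and did not pass in the retina (amplitude 0.33 ± 0.26, adjusted p = 0.927).

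Levels of the 3 genes can be set side by side per length, in the authors' FPKM. Over all times the retina held 155 ± 20.6 FPKM of CRY2, 112 ± 19.0 of CRY1 and 35.1 ± 3.58 of CRY4 (SD, n = 18). The pineal gland held 117 ± 57.3 FPKM of CRY1, 100.02 ± 17.9 of CRY2 and 11.8 ± 3.10 of CRY4. The order of CRY1 and CRY2 turned over during the pineal day. At CT0 CRY2 supplied 65.2% ± 0.732 of the summed cryptochrome FPKM and CRY1 26.9% ± 1.13 (SD, n = 3), and at CT12 CRY1 supplied 68.2% ± 1.49 and CRY2 28.97% ± 1.45. The ratio of CRY1 to CRY2 within a library went from 0.391 to 0.434 at CT0 to between 2.25 and 2.56 at CT12. At CT4 the ratio was 0.912 ± 0.0391, and at CT20 it was 0.503 ± 0.0358. In the CT12 library not low in TTR, replicate 2, CRY1 supplied 67.5% and CRY2 29.8%, and the ratio was 2.26. In CT20 replicates 2 and 3, also not low in TTR, the ratio was 0.542 and 0.472.

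**Figure D3:**
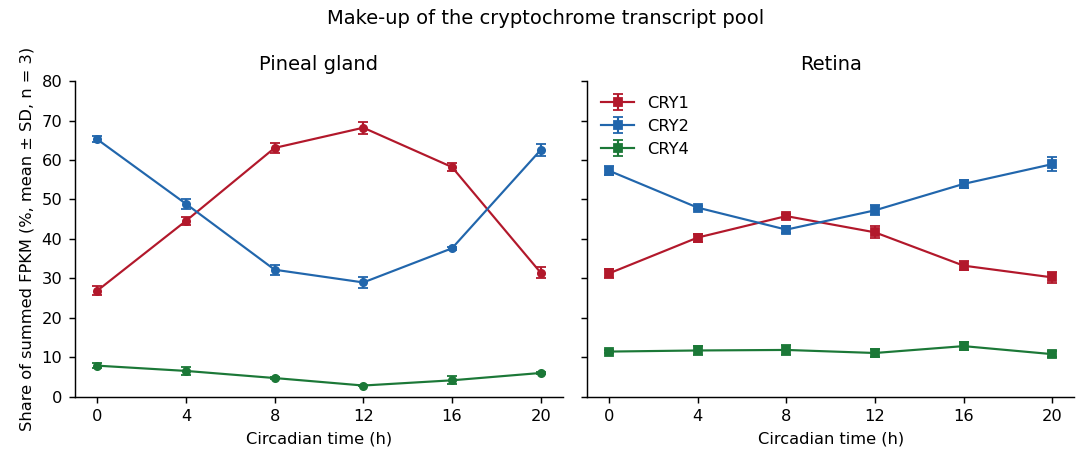
Share of each gene in the summed FPKM of the 3 cryptochromes (%, mean ± SD of 3 libraries) against circadian time in pineal gland and retina. CRY1 spans 26.9% to 68.2% in pineal gland and 30.3% to 45.8% in retina, and CRY4 is the smallest share at every time.

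In the retina the shares moved less. CRY2 supplied from 42.4% ± 0.882 at CT8 to 58.9% ± 1.85 at CT20, and CRY1 from 30.3% ± 1.35 at CT20 to 45.8% ± 0.647 at CT8 (SD, n = 3). The ratio of CRY1 to CRY2 ran from 0.514 ± 0.0393 at CT20 to 1.08 ± 0.0214 at CT8, which was the only time with a mean above 1. CRY4 supplied between 10.8% and 12.8% at the 6 retinal times and between 2.85% and 7.89% at the pineal ones. These CRY4 values rest in part on a transcript with few counts. ENSGALT00000040670 held 1.91% of retinal CRY4 counts and on average 12.5% of a retinal library's CRY4 FPKM. In pineal gland, where it was too low to be tested, it held on average 9.4% and at most 42.4% of that FPKM. Mean pineal CRY4 FPKM was 8.42 at CT12 and 8.74 at CT16, whereas mean CRY4 CPM was 12.7 and 10.6. The summed FPKM ran from 177 at CT20 to 294 at CT12 in the pineal gland, a ratio of 1.66. In pineal CT12 replicate 2, not low in TTR, the sum was 275 and CRY4 supplied 2.65%. In pineal CT20 replicates 2 and 3 the sum was 174 and 176. In the retina it ran from 290.005 at CT12 to 314 at CT0, a ratio of 1.08. These shares are a description and were not tested.

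Averaged over the 6 times on the log2 scale, all 3 cryptochromes were lower in the pineal gland than in the retina. The difference was -1.79 ± 0.05 for CRY4, -0.84 ± 0.02 for CRY2 and -0.29 ± 0.02 for CRY1 (SE, log2, pineal minus retina; edgeR adjusted p = 9.97e-25, 9.66e-27 and 2.58e-13). These are ratios of 3.45, 1.78 and 1.22 on that scale. Leaving out the libraries low in TTR, the differences were -1.82, -0.86 and -0.31. Plain means of CRY1 lay closer, at 238 CPM in pineal gland and 260 CPM in retina with both tissues scaled together. On plain FPKM the order of CRY1 turned, with means of 117 in pineal gland and 112 in retina. Most genes differed between these tissues: 89.7% of 13485 were called, 43.3% as lower in pineal gland and 46.3% as higher. All 7 cryptochrome transcripts tested were also lower in pineal gland, as were 39.5% of transcripts. The difference was -0.27 ± 0.02 for CRY1-201, and -0.09 on FPKM. For the low CRY4 transcripts it depended on the setting, from -2.53 to -1.37 for ENSGALT00000040670 and from -3.39 to -1.11 for ENSGALT00000000143 over the alternatives. On the authors' FPKM the median over all genes shifted by 0.19 towards the pineal gland compared with the scaled counts, and the CRY1 difference shrank to -0.09 (limma adjusted p = 0.00113). For CRY4 it was -1.53 at the least. In bulk tissue, fewer cells of a type and less RNA per cell cannot be told apart. The cone photoreceptor list, with 6 of 10 genes measured, summed to 287 to 524 CPM in pineal gland and 4462 to 6401 CPM in retina. GNB3 had means of 151 and 2129 CPM, whereas CNGA3 (120 and 150 CPM) and CNGB3 (85.8 and 157 CPM) lay closer. The rod photoreceptor list, with 6 of 7 genes measured, summed to 364 to 510 CPM and 1528 to 3656 CPM. Within it NR2E3 (223 and 28.9 CPM) and CNGA1 (29.8 and 27.0 CPM) had the higher mean in pineal gland. The part of these lists, or of the inner retina list, in the CRY4 difference was not tested.

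The tissue difference of CRY1 changed sign over the day, in a comparison at each time that was added after the data were seen. Pineal CRY1 was lower at CT0 by a log2 difference of -1.12 ± 0.06, at CT4 by -0.50 ± 0.06 and at CT20 by -0.92 ± 0.06 (SE; edgeR adjusted p = 2.19e-17, 1.77e-09 and 3.10e-15). Pineal CRY1 was higher at CT12 by 0.54 ± 0.05 and at CT16 by 0.16 ± 0.06 (adjusted p = 1.85e-10 and 0.00860). At those times 37.2%, 37.2% and 36.3% of genes were called lower in pineal gland, and 39.4% and 39.2% were called higher at CT12 and CT16. At CT8 all 3 pineal libraries were above the retinal ones, but the difference of 0.10 ± 0.05 did not pass (adjusted p = 0.112); on log2(FPKM + 0.1) it was 0.28 and passed (limma adjusted p = 0.000150). The CT4 difference was -0.27 on that scale and the CT16 difference 0.34. Without the libraries low in TTR, with pineal replicate 2 alone at CT12, the CT12 difference was 0.44.

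**Figure D4:**
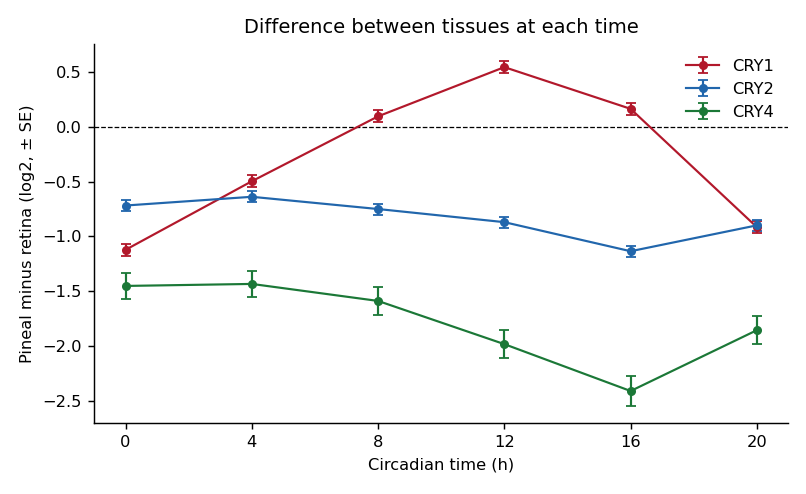
Pineal minus retina difference of CRY1, CRY2 and CRY4 (log2, ± SE from edgeR, 3 libraries per tissue and time) against circadian time; the dashed line marks no difference. CRY1 runs from -1.12 at CT0 to 0.54 at CT12, and CRY2 and CRY4 stay below the line, lowest at CT16.

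CRY2 and CRY4 were lower in the pineal gland at every time. For CRY2 the difference ran from -0.64 ± 0.05 at CT4 to -1.14 ± 0.05 at CT16, and for CRY4 from -1.43 ± 0.12 at CT4 to -2.41 ± 0.13 at CT16 (SE, log2; edgeR adjusted p at most 6.13e-13 and 5.28e-12). On log2(FPKM + 0.1) the CT4 difference of CRY2 was -0.38. The CT12 differences without the libraries low in TTR, with pineal replicate 2 alone at that time, were -0.96 for CRY2 and -2.16 for CRY4. At CT8, CT12 and CT16 the share of genes called lower in pineal gland was 36.7%, 36.9% and 36.6%. In these comparisons every pineal library was below every retinal library of the same time.

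The clock partners give the time frame of these rhythms. Of the activator list, 4 of 6 measured genes were rhythmic in pineal gland and 5 of 6 in retina, where 28.6% and 8.91% of all genes were, with median amplitudes of 0.73 and 0.32 against 0.12 and 0.07 over all genes tested. ARNTL, the partner of CLOCK, peaked at CT12.6 in pineal gland (amplitude 1.75 ± 0.07), so that CRY1 came 1.997 h before it on the fitted curves. In retina ARNTL peaked at CT11.0 (0.97 ± 0.06), 3.13 h after CRY1. CLOCK itself peaked at CT13.2 in pineal gland and CT12.4 in retina. RORA, an activator of ARNTL, was called in retina with a peak apart from the others, at CT0.688 (0.21 ± 0.04, edgeR adjusted p = 0.00144). In pineal gland RORA was not called (0.03 ± 0.08, adjusted p = 0.913). RORB, also of this list, was called in neither pineal gland (0.11 ± 0.05, adjusted p = 0.148) nor retina (0.07 ± 0.03, adjusted p = 0.253).

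The repressor list had 4 of 4 measured genes rhythmic in both tissues, beside 28.6% of all pineal and 8.91% of all retinal genes, with median amplitudes of 1.57 and 0.57. PER2, a period protein that binds cryptochromes, peaked at CT3.32 in pineal gland (1.77 ± 0.10) and at CT1.997 in retina (0.72 ± 0.04). Pineal PER2 lay near CRY4 at CT3.07, while CRY1 followed PER2 by 7.28 h. PER3 peaked at CT1.15 and BHLHE40, a repressor that binds the same E-box sites as CLOCK, at CT1.03 in pineal gland, near CRY2. NR1D2, which represses ARNTL, peaked at CT23.0 in pineal gland and CT20.8 in retina. Outside the cryptochromes, 10 of the activator, repressor and D-box genes were rhythmic in both tissues. In all 10 the fitted retinal peak was the earlier and the pineal amplitude the larger, though for CLOCK the shift was 0.804 h with an SE of 0.753 h. Of the 676 genes called in both tissues, 66.9% had the earlier fitted peak in retina and 75.9% the larger amplitude in pineal gland.

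**Figure D5:**
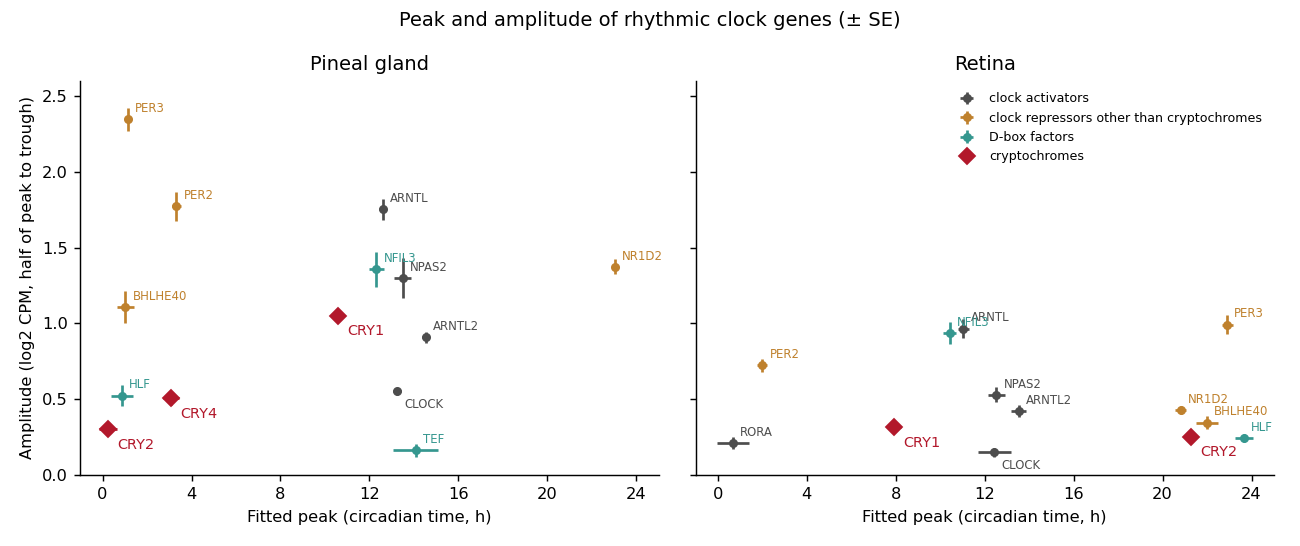
Amplitude (log2 CPM) against fitted peak (circadian time, h) of the genes called rhythmic among cryptochromes, clock activators, other clock repressors and D-box factors, with bars of ± SE, in pineal gland and retina. CRY1 stands at CT10.6 in pineal gland and CT7.91 in retina, ahead of the activators other than retinal RORA at CT0.688, and away from the other repressors, which lie between CT20.8 and CT3.32.

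Of the D-box factors, which bind a promoter element named after albumin site D, 3 of 3 measured genes were rhythmic in pineal gland and 2 of 3 in retina, beside 28.6% and 8.91% of all genes. HLF, an activator at that element, peaked at CT0.856 in pineal gland (0.52 ± 0.07) and NFIL3, a repressor there, at CT12.3 (1.36 ± 0.11). TEF, the other measured gene of the list, peaked at CT14.1 in pineal gland (0.16 ± 0.04, edgeR adjusted p = 0.0157), nearer to NFIL3 than to HLF. On the fitted curves pineal CRY1 peaked 1.71 h before NFIL3. In retina NFIL3 peaked at CT10.4 and HLF at CT23.7, and TEF was not called (0.04 ± 0.02, edgeR adjusted p = 0.395).

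Among 18 genes for turnover and modification of cryptochromes, 13 were rhythmic in pineal gland and 6 in retina, beside 28.6% and 8.91% of all genes, and without the libraries low in TTR the pineal count was 12. The median amplitudes of 0.13 and 0.06 were close to the 0.12 and 0.07 over all genes tested. FBXL21, an F-box protein that directs ubiquitin to mammalian cryptochromes, peaked in pineal gland at CT14.7 (0.33 ± 0.05), after CRY1. In retina FBXL21 peaked at CT11.0 (0.45 ± 0.05). CUL4A, a scaffold of the ubiquitin ligase that also acts on mammalian CRY1, had the widest pineal swing of the list, at 0.61 ± 0.06 with a peak at CT12.2. DTL, a substrate receptor of the same ligase, peaked at CT11.6 in pineal gland and CT6.17 in retina (0.41 ± 0.06 and 0.63 ± 0.07). The kinase subunit PRKAA1, which with PRKAA2 marks CRY1 for degradation in mammals, showed no called rhythm in pineal gland (0.02 ± 0.02, adjusted p = 0.850) or retina (0.02 ± 0.05, adjusted p = 0.973). PRKAA2 was called in retina, with a peak at CT0.114 (0.14 ± 0.03, edgeR adjusted p = 0.00690), and not in pineal gland (0.02 ± 0.04, adjusted p = 0.879).

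Of 7 genes whose proteins have been reported to bind CRY4 in birds, 5 were measured here, and 3 were rhythmic in pineal gland, KCNV2 and RGR among them, where 28.6% of all genes were. In retina 2 of 4 tested were called, beside 8.91% of all genes: KCNV2, a potassium channel subunit (0.36 ± 0.06, CT3.99), and RGR, an opsin-related protein (0.43 ± 0.14, CT3.94, edgeR adjusted p = 0.0380). The retinal count fell to 1 when any of 10 single libraries was left out: CT4 replicates 1 and 2, CT8 replicates 1 and 3, CT12 replicates 1, 2 and 3, CT16 replicates 1 and 2, and CT20 replicate 1. It rose to 3 without CT0 replicate 3 or CT16 replicate 3.

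The genes whose log2 CPM followed each cryptochrome most closely over the 18 libraries of a tissue were ranked by Pearson's r, as a description. For pineal CRY1 they were NIPSNAP3A (r = 0.975), IQGAP2 (0.973) and NBL1 (0.972) among 11428 named genes, with peaks at CT11.0, CT11.1 and CT11.2. For pineal CRY2 they were MSL1 (0.968), KCTD7 (0.959) and RAP1GAP2 (0.959). For pineal CRY4 they were SARM1 (0.945), PKIB (0.941) and PER2 (0.937). In retina CRY1 was followed by CITED3 (0.902), JAG1 (0.863) and SLCO4A1 (0.835), and CRY2 by NR1D2 (0.956), ZMIZ1 (0.902) and BHLHE40 (0.902), among 10842 genes. For retinal CRY4 the closest were PKNOX2 (0.744), KBTBD11 (0.729) and ZNF638 (0.712), lower than for any other member and tissue. These libraries share their times and their depth, so high values arise between any genes with a like time course. Without the libraries low in TTR the pineal values ran from 0.937 to 0.980. Any genes with names that begin with ENSGAL, LOC or gga- were passed over in the ranking but count among the 11428 and 10842.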

How the data were processed

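RNA of 36 libraries was sequenced, and the authors deposited a table of estimated counts and a table of FPKM for 23352 Ensembl transcripts. Trimmomatic, TopHat and Cufflinks are named per the submitters' processing notes, and their versions, the genome build and the strandedness are not given in the sources used here. In 53 transcripts whose table name belongs to another RefSeq gene, the RefSeq name was used. The estimated counts deposited by the authors need not be whole, and were summed per gene and rounded. The deposited FPKM values are scaled to transcript length and library size, as computed by the authors.

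Counts were scaled by TMM and filtered with filterByExpr. edgeR 4.0.16 (quasi-likelihood F test, R 4.3.3) tested a 24 h cosine and sine in each tissue, 4 h steps, departure from the curve, the difference of curves and levels between tissues, and, with diffSpliceDGE, transcript usage. The Benjamini-Hochberg adjustment ran over all features tested, with calls at 0.05. Amplitudes and peaks came from least squares on log2 CPM with a prior count of 2, and their SEs from the delta method. CPM levels were scaled within each tissue. The difference at each circadian time and the steps and shares with libraries left out were added after the data were seen. Code was tested on simulated data.

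Alternatives were DESeq2 1.42.0, its size factors, no filter, limma 3.58.1 on log2(FPKM + 0.1) and log2(FPKM + 1), a mean per time, 1 fit for both tissues, transcripts apart, a replicate block, and leaving out each library or the 3 libraries low in TTR. The named genes were the members, the genes of the clock, turnover and CRY4-binding lists, and the 3 most similar genes with a mean of at least 1 CPM per member and tissue. Some list genes are not reported here by name. The members and lists were chosen with earlier results of these data known. Of 36 replicate pairs none agreed within counting noise. Plots used matplotlib 3.10.9.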

Additional observations from a re-analysis of the deposited data

Results flagged for a closer look

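The 24 h curves of all 3 cryptochromes differed between pineal gland and retina in a direct test of the difference. The amplitude of the difference curve was 0.84 (log2) for CRY1, 0.22 for CRY2 and 0.45 for CRY4, with edgeR adjusted p of 1.15e-16, 0.000198 and 6.39e-05. Of 13485 genes, 16.4% passed this test. CRY1 and CRY2 were rhythmic in both tissues, with retinal peaks 2.69 h and 2.96 h before the pineal ones, and CRY4 was called in pineal gland, with a retinal amplitude of 0.06 ± 0.05 (SE).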

How the results depend on the processing

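The rhythms, rhythm differences and tissue differences of the 3 genes kept their side of the threshold in all 324 values from fits that left out 1 library. They also did so in 129 values from other alternatives. In these values of called results tissue differences kept their sign, and no fitted peak passed the 6 h shift set as the limit. Outside the fits without 1 library and transcripts apart, pineal CRY1 peaks ran from CT10.5 to CT10.6 and retinal ones from CT7.91 to CT7.94. Those of CRY2 ran from CT0.220 to CT0.539 in pineal gland and from CT21.2 to CT21.3 in retina. Pineal CRY4 peaks ran from CT2.63 to CT3.07. A rhythm difference is a size without a sign, so its direction could not change. Another 6 values, each for a low transcript taken apart, lost the call. For CRY2-202 the curve had an amplitude of 0.37 in pineal gland (edgeR adjusted p = 0.119) and 0.19 in retina (0.442), and the curves differed by 0.24 (0.658). For CRY4 ENSGALT00000000143 the pineal amplitude was 0.47 (0.554) and the difference 0.28 (0.932), and for ENSGALT00000040670 the difference was 0.51 (0.745). Each replicate number occurs at every time, so the replicate block cannot change a fitted amplitude and only the test could move. With the block the pineal rhythm of CRY1 had an edgeR adjusted p of 1.29e-12. Apart from the 2 steps and the departure given for CRY1 and CRY2 no other call on a cryptochrome changed. Same-numbered libraries deviated together little in the median (r of 0.0137 in pineal gland and 0.0135 in retina). In pineal gland 15 of 45 same-numbered pairs were above 0.1, with a highest r of 0.644. Of differently numbered pineal pairs 20 of 90 were, with a highest r of 0.424. In retina 2 of 45 and 5 of 90 pairs were above 0.1. The numbers were not taken as pairs in the main fits, and the block stands as an alternative. Leaving out 1 library, the pineal amplitude ran from 1.04 to 1.07 for CRY1, 0.29 to 0.33 for CRY2 and 0.48 to 0.54 for CRY4. A mean per time in place of the curve gave 696 rhythmic retinal genes against 1085, and 515 transcripts against 941. The tissue difference of CRY1-202 lost its call on FPKM (limma, -0.0954 to -0.0893, adjusted p 0.0562 to 0.0673). The retinal count of the CRY4-binding list was 1 under DESeq2, a mean per time and limma.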
